A study of Danio rerio with 31 samples.

Results

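The endoplasmic reticulum (ER) stress genes described here are 10 symbols: the transcription factors atf4a, atf4b, ddit3 and xbp1, the chaperones and folding factors hspa5, hsp90b1, dnajb11, pdia4 and sdf2l1, and the retrieval receptor kdelr3. A gene was taken when its Ensembl symbol equalled a listed name in any letter case, with or without the paralog letter, which gave 11 of the 32520 gene IDs in the count tables. The symbol KDELR3 stands for 2 IDs, and the name kdelr3 stands below for ENSDARG00000040912. The other, ENSDARG00000104519, had no read in 23 fish, which over their 510.26 M reads allows up to 0.00588 CPM (counts-per-million gene reads), and had 16 reads (0.99 CPM) in F2 control male 27. It was too low to be tested, so 10 of the 11 IDs were tested.

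Cells meet an excess of unfolded protein in the ER with the unfolded protein response. The kinase PERK slows translation in general while favouring that of the transcription factor ATF4, which switches on amino acid supply genes and the transcription factor CHOP. The nuclease IRE1 splices the XBP1 message, and the membrane protein ATF6 is cut to release a transcription factor. Between them XBP1 and ATF6 switch on chaperones, disulfide isomerases and the machinery that degrades or exports ER proteins. Much of this control is exerted on translation and splicing, and counts per gene show neither the ATF4 protein nor the spliced share of xbp1.

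The fish were adult zebrafish (Danio rerio) of the TU line, and RNA was taken from whole brains. The F0 groups were 6 males labelled treated and 6 labelled control; the series title gives the exposure as a mixture of polychlorinated biphenyls and polybrominated diphenyl ethers, persistent chlorinated and brominated pollutants. The F2 groups were unexposed descendants: 4 females and 2 males labelled treated, here called the treated line, and 4 females and 2 males labelled control, here the control line. The labels give no dose, duration, age, family or tank, so p-values measure the spread between these fish, and a difference of family or tank cannot be told apart from exposure or descent. In whole brain, fewer cells of a type and less RNA per cell cannot be told apart either.

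Each fish had between 12.2 and 34.1 M reads in genes (median 21.53 M). Brain markers were present in every fish: summed neuron markers stood at 5698 to 7587 CPM and radial glia markers at 4941 to 8346 CPM. The markers of photoreceptors and the pineal gland, which a brain dissection may or may not include, ranged from 22.3 to 1312 CPM, with F0 control male 33 the lowest. Reads aligned outside genes made up 18.46% ± 1.04 (SD, n = 6) of uniquely aligned reads in F0 treated males and 20.65% ± 0.594 (n = 6) in F0 controls. The F0 arms did not overlap in this share (16.64 to 19.61% against 19.95 to 21.45%; exact two-sided permutation test, p = 0.00216, adjusted 0.00432 over 2 tests). In F2 females it was 20.01% ± 0.969 (n = 4) in the treated line and 22.74% ± 0.797 (n = 4) in the control line, again with no overlap (exact p = 0.0286, the smallest that 4 against 4 allows). In F2 males the lines overlapped, at 17.79 and 20.26% in the treated line against 19.19 and 21.08% in the control line. In F0 males and F2 females the share therefore moves with the arms compared below, and what it contributes to their differences was not tested beyond the covariate fit given with them.

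**Figure D1:**
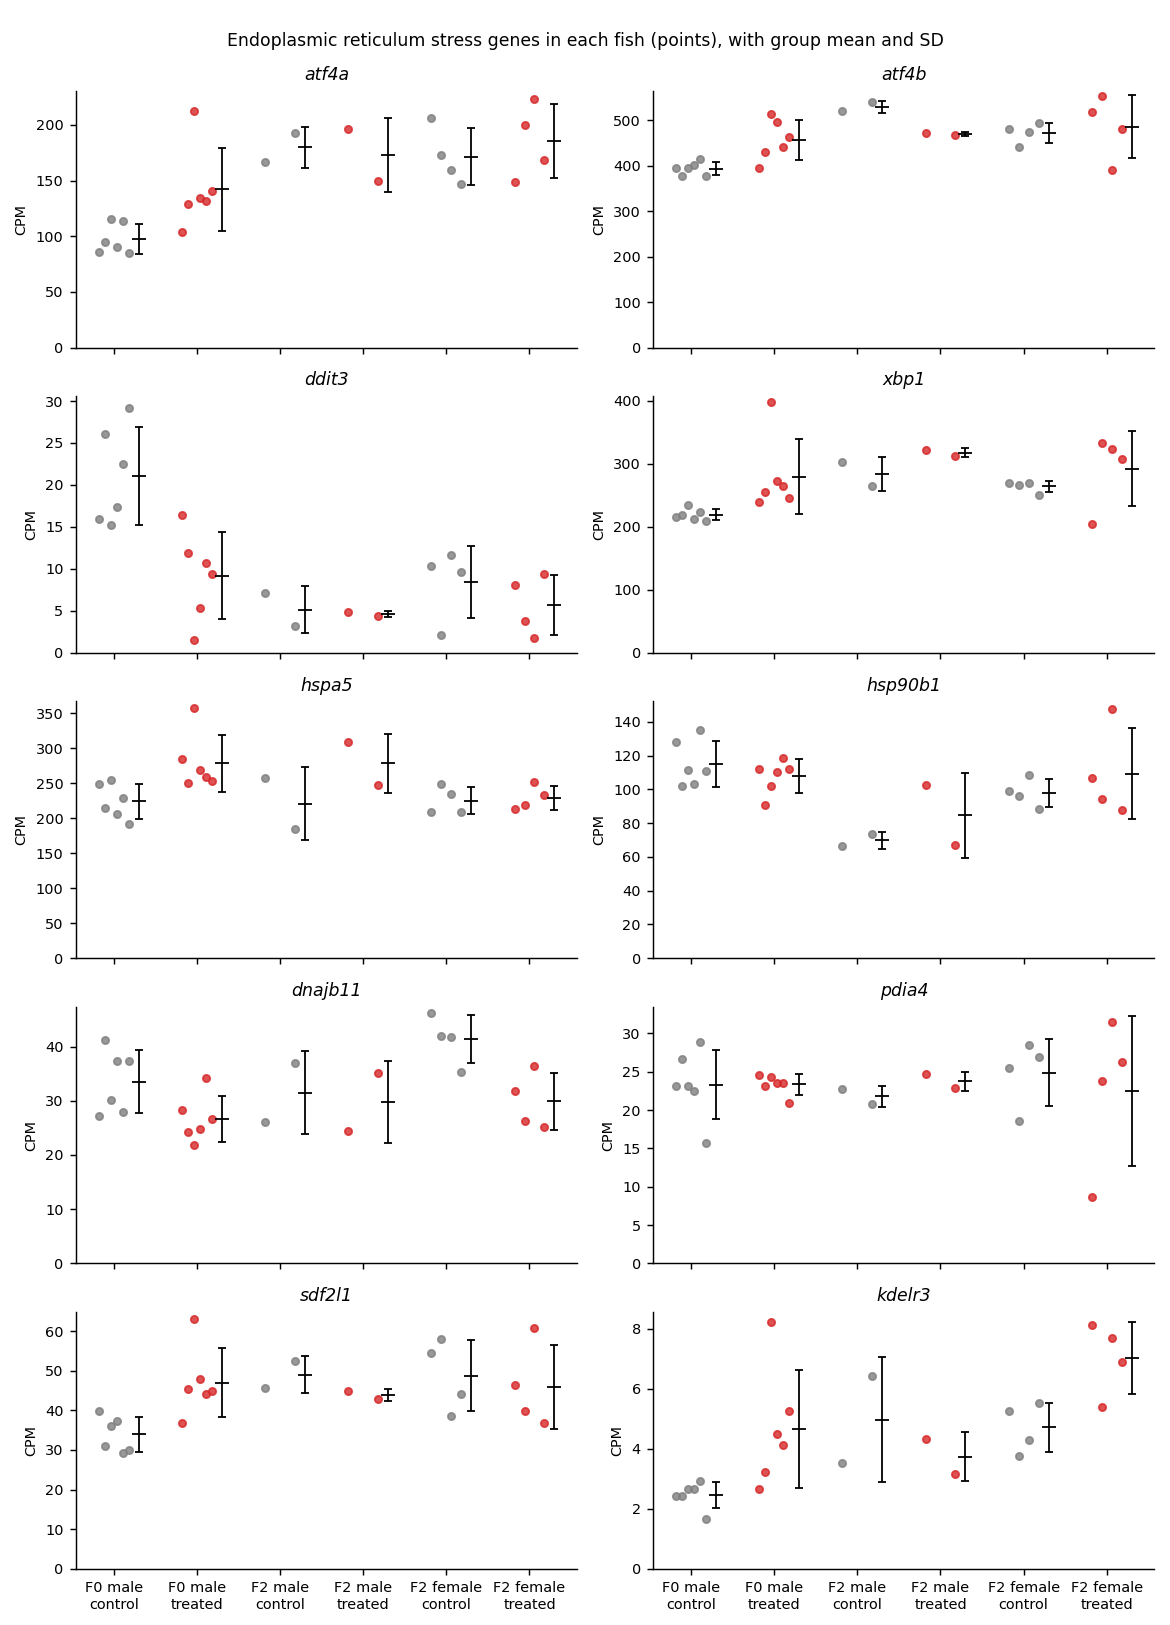
Level of each of the 10 tested genes in every fish, in CPM scaled by TMM factors, by generation, sex and arm (grey control, red treated). Points are fish and the bars give the group mean and SD; the scale starts at 0. In F0 males xbp1 alone had no overlap between arms, at 239 to 398 CPM in treated and 209.8 to 235 CPM in control fish. Over all genes tested, 5.59% had F0 arms that did not overlap.

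The F0 comparison asks which genes differed in the brains of the exposed males themselves. Of the 10 genes tested, 3 were higher in exposed males and 0 were lower: atf4a, sdf2l1 and kdelr3. Over all 18057 genes tested, 11.4% were called, 6.32% higher and 5.09% lower (edgeR's quasi-likelihood test, Benjamini-Hochberg adjusted p below 0.05). At an unadjusted p below 0.05 stood 8 of the 10 genes and 5349 of all genes. DESeq2 called 7 of the 10, adding atf4b, xbp1 and hspa5 as higher and ddit3 as lower. Over all 18057 genes it called 3347. The median log2 change of the 10 genes was 0.26, against −0.02 for all genes tested. The 10 genes were chosen with earlier results of these data known, so this is a description only. The 3 calls, like all 2060 in this comparison, were absent when the outside-gene share was a covariate, and they were also lost without treated male 16 and control males 9 and 33.

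Of the transcription factors, atf4a is a zebrafish copy of ATF4. Its level ran from 104 through a median of 133 to 213 CPM in treated males, and from 84.9 through 92.7 to 116 CPM in controls. Treated male 16 was the highest fish and treated male 2 the lowest of its arm, and the arms overlapped through that fish. The mean was 142 ± 36.9 CPM (SD, n = 6) against 97.6 ± 13.7 CPM (n = 6), and all 6 treated fish lay above the control mean. The log2 change was 0.54 (SE 0.146, adjusted p = 0.0325). In its paralog atf4b, treated males ran from 394 through 453 to 515 CPM and controls from 377 through 396 to 414 CPM. Here too male 2 was the lowest treated fish, inside the control range. The log2 change of atf4b was 0.21 (SE 0.0768), which did not pass (adjusted p = 0.0763).

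The gene ddit3 encodes CHOP, a transcription factor that promotes cell death under prolonged ER stress. It stood at 1.54 to 16.4 CPM in treated males (median 10.03) and at 15.3 to 29.2 CPM in controls (median 19.9). Its direction was opposite to that of atf4a: the lowest treated fish was male 16, the highest male 2, and only male 2 reached the control range. With a log2 change of −1.20 (SE 0.396), ddit3 did not pass (adjusted p = 0.0632). All 6 treated fish were below the control mean.

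The gene xbp1 encodes the transcription factor that IRE1 activates. Treated males ran from 239 through 260.5 to 398 CPM, controls from 209.8 through 217 to 235 CPM. It was the 1 gene of the 10 whose F0 arms did not overlap, where 5.59% of all genes tested had arms that did not. Its spread was unequal, with an SD of 59.5 CPM in treated males and 8.95 CPM in controls, and treated male 16 stood far above the next fish, at 273 CPM. The log2 change of 0.35 (SE 0.112) did not pass (adjusted p = 0.0529), but it passed without treated male 2 or without treated male 16, where the lowest adjusted p was 0.0286.

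Of the chaperones, hspa5 encodes BiP, the Hsp70 of the ER lumen, which also holds the stress sensors inactive. Treated males ran from 249.7 through 264 to 358 CPM and controls from 191.7 through 222 to 254 CPM. Male 16 was again the highest, and the arms overlapped between treated male 10 at 249.7 CPM and control male 15 at 254 CPM. The log2 change was 0.31 (SE 0.102, adjusted p = 0.0553), so hspa5 did not pass; without control male 15 it did (adjusted p = 0.0458). The Hsp90 of the ER, hsp90b1 (GRP94), had 90.5 to 119 CPM in treated males (median 111.3) and 102 to 135 CPM in controls (median 111.4). These ranges overlapped over most of their length. The log2 change, −0.10 (SE 0.0918), had an adjusted p of 0.518.

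The gene dnajb11 encodes ERdj3, a co-chaperone that hands clients to BiP. Its levels were 21.8 to 34.2 CPM in treated males (median 25.7) and 27.1 to 41.1 CPM in controls (median 33.7). It leaned the other way from hspa5, 5 of 6 treated fish lying below the control mean, with treated male 16 the lowest fish and male 36 the highest of the arm. The log2 change was −0.33 (SE 0.134, adjusted p = 0.11) and did not pass. The disulfide isomerase pdia4 (ERp72) was at 20.9 to 24.6 CPM in treated males and 15.7 to 28.8 CPM in controls. The arms had nearly the same mean, 23.3 ± 1.33 CPM (SD, n = 6) against 23.3 ± 4.48 CPM (n = 6), and the log2 change was 0.00 (SE 0.129, adjusted p = 0.999).

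The gene sdf2l1 encodes a partner of ERdj3 and BiP that is known in mammals as one of the ER stress targets. In treated males it ran from 36.7 through 45.1 to 63.2 CPM, in controls from 29.3 through 33.5 to 39.8 CPM. The arms overlapped through treated male 2, below controls 3 and 25, and male 16 was the highest fish. Its mean was 47.01 ± 8.77 CPM (SD, n = 6) against 33.9 ± 4.33 CPM (n = 6), and sdf2l1 differed by 0.47 on the log2 scale (SE 0.126, adjusted p = 0.0315). In this fit dnajb11 and sdf2l1, whose products bind each other in mammals, had log2 changes of opposite sign, though that of dnajb11 did not pass. With the outside-gene share as a covariate both were 0.02.

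The gene kdelr3 encodes a receptor that returns escaped ER residents, BiP and GRP94 among them, from the Golgi. It was low, with 347 reads over the 6 controls and 736 over the 6 treated males. Treated fish had 2.67, 3.22, 8.21, 4.48, 4.13 and 5.27 CPM (males 2, 10, 16, 24, 36 and 38), and controls ran from 1.66 through 2.55 to 2.93 CPM. Male 2 lay inside the control range and male 16 far above the rest. The log2 change, at 0.92 (SE 0.28, adjusted p = 0.046), was the largest of the 3 calls and held least often when single fish were left out: in 2 of 12 fits, against 7 of 12 for atf4a and 7 of 12 for sdf2l1. Its call was left only in the fits without treated male 2 or 10 (adjusted p up to 0.101 in the others). That of atf4a was lost without treated male 24 or control 3, 9, 25 or 33 (up to 0.0809), and that of sdf2l1 without treated male 24 or control 9, 25, 31 or 33 (up to 0.0788). The other KDELR3 ID had no read in any F0 fish, so reads that match both copies, if there are any, could have been left uncounted.

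Treated male 16 and treated male 2 marked the ends of the exposed arm. Male 16 was the highest treated fish for 6 of the 10 genes and the lowest for 2, ddit3 and dnajb11. Male 2 was the lowest for 5 and the highest for 2, ddit3 and pdia4. Male 16 also had the lowest share of reads outside genes of all 24 fish (16.64%) and male 2 the highest of the treated males (19.61%). With that share as a covariate the log2 changes were −0.04 (SE 0.176) for atf4a, 0.02 (SE 0.165) for sdf2l1 and 0.13 (SE 0.432) for kdelr3. In that fit 5 of the 10 genes changed sign, and 0 of all 18057 genes were called, with 1029 at an unadjusted p below 0.05. The arms do not overlap in this share, so the share and the exposure cannot be told apart. Without treated male 16 and control males 9 and 33, which stood apart in earlier work on these libraries, 0.227% of the genes tested were called. None of the 10 was among them, and the log2 changes were 0.33 (SE 0.111) for atf4a, 0.30 (SE 0.115) for sdf2l1 and 0.56 (SE 0.273) for kdelr3. Control male 33 was the lowest control for 5 of the 10 genes and the highest for 1, and control male 9 the lowest for 2 and the highest for 1. This fit thus has fewer fish and leaves out fish from the ends of both arms.

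**Figure D2:**
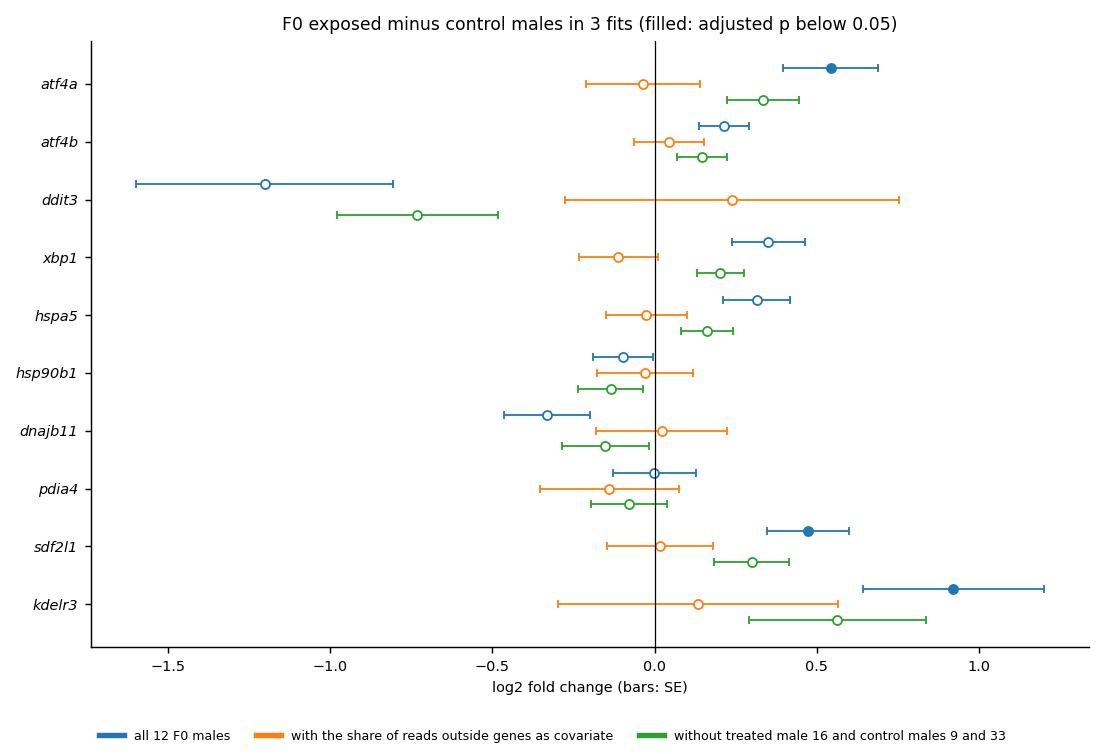
Log2 change between exposed and control F0 males for each gene in 3 fits: all 12 males, the same with the outside-gene share as a covariate, and without treated male 16 and control males 9 and 33. Points are estimates and bars their SE, filled where the adjusted p is below 0.05; only atf4a, sdf2l1 and kdelr3 are filled, and only in the fit of all 12 males.

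**Figure D3:**
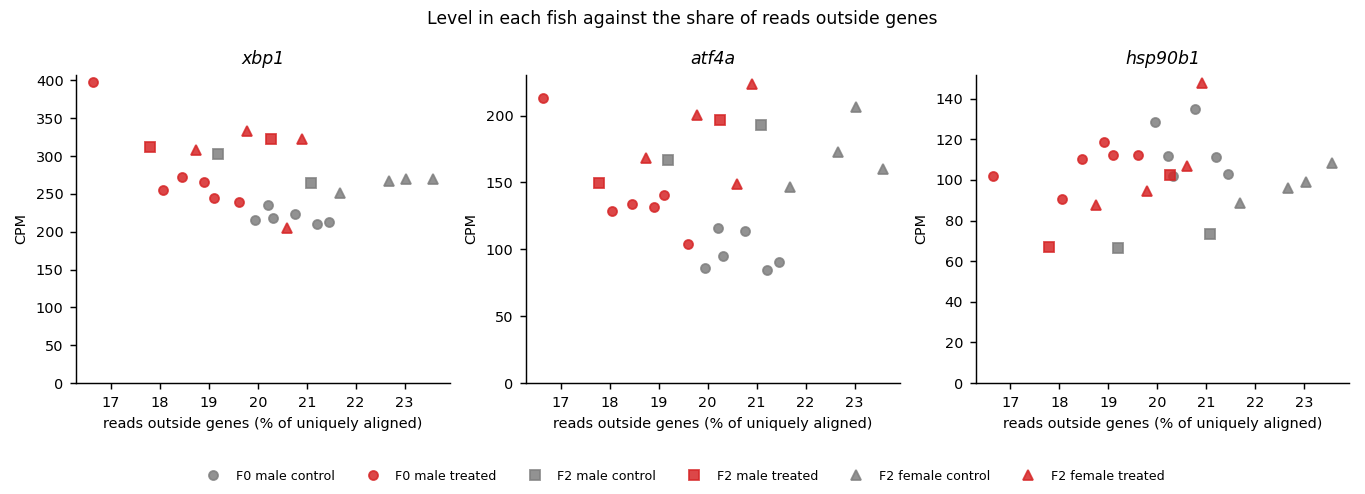
Level of xbp1, atf4a and hsp90b1 in each of the 24 fish (CPM) against the share of uniquely aligned reads outside genes (%), by generation, sex and arm. F0 treated male 16 is the leftmost point in each panel, at 16.64%, with 398 CPM of xbp1 and 213 CPM of atf4a.

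The wider ER stress network was described in F0 males through 6 lists, whose counts are to be read against the 6.32% of all genes called higher and the 5.09% called lower. No test compared a list with other genes or with another list. None of the 5 tested sensors and activating proteases (relatives of IRE1, PERK, ATF6 and its proteases) passed, the lowest adjusted p being 0.0632. Of 40 tested ATF4 and CHOP targets, 1 rose and 4 fell, with a median log2 change of 0.00; 5 called of 40 lies near the share over all genes, 11.4%. The riser was the stress-response gene nupr1a (0.37, adjusted p = 0.0471). The fallers with the lowest p were the cysteinyl-tRNA synthetase CARS1 (−0.73, adjusted p = 0.0158), the transcription factor atf5b (−0.56, adjusted p = 0.0187) and the amino acid transporter chain SLC3A2 (−0.53, adjusted p = 0.0322). The list also holds atf7ip, a chromatin cofactor that is not a known target. Of 40 tested ER chaperones and folding enzymes, 1 rose and 4 fell, the same share, with a median of −0.07. The thiol retention factor ERP44 rose (0.36, adjusted p = 0.0248). The collagen folding isomerase FKBP10 (−1.35, adjusted p = 0.0231; 1 of 2 IDs with this symbol), the glycoprotein folding sensor UGGT1 (−0.67, adjusted p = 0.0248) and the lectin chaperone CALR (−0.62, adjusted p = 0.0268) fell. The level of FKBP10 was low, with means of 3.25 CPM in controls and 1.28 CPM in treated males.

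Of 26 tested genes of ER-associated degradation, 4 rose and 1 fell (19.2% called; median 0.18), the risers led by the segregase VCP at 0.29 (adjusted p = 0.029), the ubiquitin ligase RNF139 and HERPUD2, while the lectin os9 fell by 0.56 (adjusted p = 0.0209). Of 34 genes of ER entry and glycosylation, 8 rose and 1 fell (26.5% called; median 0.27). They included the oligosaccharyltransferase subunit STT3B (0.39, adjusted p = 0.0158), SRP72 of the signal recognition particle (0.36) and the translocon-associated SSR1 (0.48), while SRP54, also of the signal recognition particle, fell by 0.84 (adjusted p = 0.015). Of 47 genes of KDEL receptors and ER-Golgi transport, 10 rose and 0 fell (21.3% called; median 0.12), led by the COPII coat genes SEC24A (0.71, adjusted p = 0.0204) and SEC24B (0.31) and the COPI coat gene COPA (0.29). None of these calls held with the share covariate, where 0 of all genes were called, but the log2 changes moved unequally. They were 0.33 for STT3B, 0.25 for SEC24B and 0.23 for COPA, and −1.40 for FKBP10 and −0.93 for CALR, the last pair farther from 0 than without it. They were 0.25 for SEC24A, 0.13 for SSR1, 0.08 for VCP and 0.02 for SLC3A2. Among cell type markers, 3 of 12 neuron markers fell and 1 rose, while 2 of 12 radial glia markers rose, and 0 of 21 photoreceptor and pineal markers passed. Of 11 microglia markers 1 rose, as did 1 of 15 markers of meninges, vessels and fibroblasts. None of 9 oligodendrocyte, 4 pituitary or 5 erythrocyte markers passed. Summed neuron markers were 5824 to 6895 CPM in treated males and 6260 to 7587 CPM in controls, and summed radial glia markers 5954 to 7734 and 4941 to 6531 CPM. No marker of either list was at 0 in all fish of an F0 arm, and their part in the results was not tested.

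**Figure D4:**
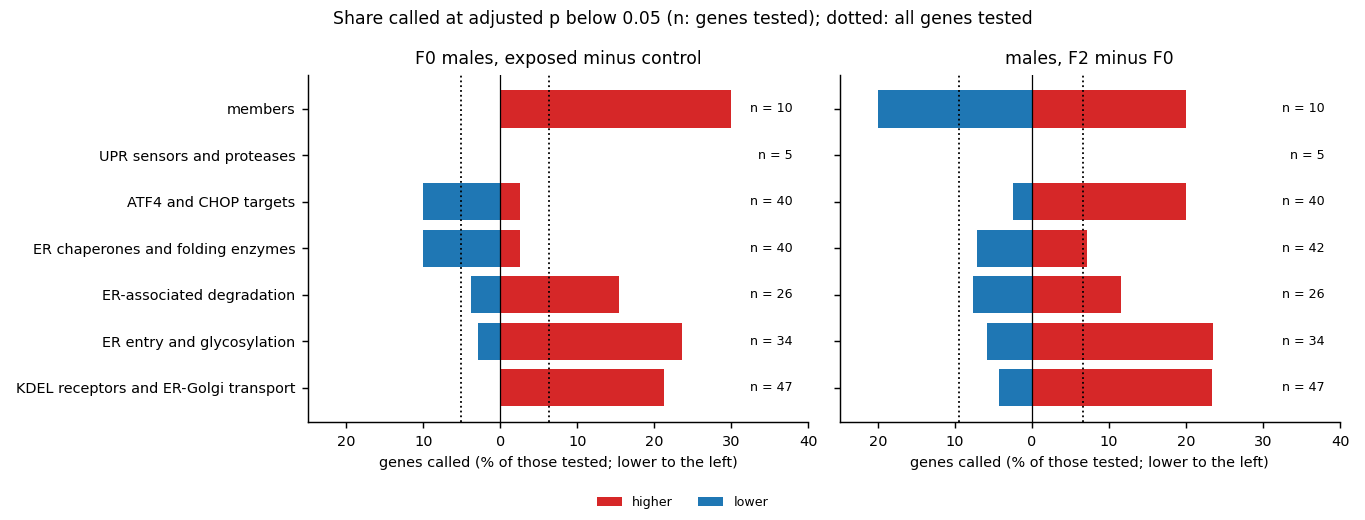
Share of the tested genes that passed (adjusted p below 0.05), higher to the right and lower to the left, for the 10 genes and 6 lists of the ER stress network, between F0 arms (left panel) and between generations in males (right panel). Dotted lines give the share over all genes tested, 6.32% higher and 5.09% lower in the F0 comparison; n is the number of genes tested.

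The F2 comparison asks whether descendants of exposed fish differed from those of controls. With both sexes in 1 fit, 0 of the 10 genes passed (edgeR; 1 at an unadjusted p below 0.05), and 0% of the 18628 genes tested were called, with 1444 at an unadjusted p below 0.05. DESeq2 called none of the 10. In females alone 0 of 10 passed (1 at an unadjusted p below 0.05; lowest adjusted p = 0.594) and in males alone 0 of 10 (0 at an unadjusted p below 0.05), each against 0% of 19463 genes. At an unadjusted p below 0.05 stood 1489 of the 19463 in females and 272 in males. DESeq2 called none of the 10 there either. These counts do not show that the lines were alike: with 4 and 2 fish a line, SEs for the 10 genes in the fit of both sexes ran up to 0.443.

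For 3 genes that passed in F0 males, F2 values were as follows. In the treated line, atf4a stood at 149, 200.4, 224 and 168 CPM in females and 197 and 149.8 CPM in males. In the control line it stood at 207, 173, 160.0 and 147 CPM in females and 167 and 193 CPM in males. The lines overlapped in both sexes, and the log2 change given sex was 0.05 (SE 0.124, adjusted p = 0.978). For sdf2l1 the treated line had 46.4, 39.8, 60.7 and 36.9 CPM in females and 44.9 and 42.8 CPM in males, against 54.5, 58.1, 38.5 and 44.2 CPM and 45.7 and 52.5 CPM in the control line. Both males of the treated line were below both control males, females overlapped, and the log2 change was −0.12 (SE 0.147, adjusted p = 0.941). For kdelr3 the treated line had 8.12, 5.38, 7.70 and 6.88 CPM in females and 4.32 and 3.15 CPM in males. The control line had 5.27, 3.77, 4.29 and 5.52 CPM in females and 3.51 and 6.43 CPM in males. All 4 treated-line females were above the control mean, though the ranges overlapped slightly, and in males the control line had the higher mean. Given sex, the log2 change of kdelr3 was 0.24 (SE 0.334, adjusted p = 0.949).

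The lowest adjusted p of the 10 genes in the fit of both sexes was that of dnajb11, 0.624, with −0.35 (SE 0.16) on the log2 scale. Its level was 31.7, 26.3, 36.5 and 25.1 CPM in treated-line females against 46.1, 41.9, 41.8 and 35.4 CPM in control-line females. Only treated-line female 24, the highest of its group, reached the lowest control. In males the lines overlapped, at 24.4 and 35.1 CPM against 26.1 and 36.9 CPM. For xbp1, 3 treated-line females (333.8, 323 and 309 CPM) were above the control-line females, all of which lay between 251 and 269.5 CPM, and female 6 was below them at 205 CPM. Its log2 change was 0.14 (SE 0.11, adjusted p = 0.871). Female 6 was also apart for pdia4, at 8.66 CPM where the other 3 females of the line had 23.8, 31.5 and 26.2 CPM. The levels of hspa5 were 214, 219, 252 and 234 CPM in treated-line and 209, 249.0, 235 and 208 CPM in control-line females. They overlapped almost completely, while the males had 308 and 248 CPM against 258 and 184 CPM; the log2 change given sex was 0.12 (SE 0.109, adjusted p = 0.913). The remaining genes, atf4b, ddit3, hsp90b1 and pdia4, had log2 changes between −0.44 for ddit3 and 0.19 for hsp90b1 and adjusted p-values of 0.861 or more. In the 6 network lists 0 genes passed between the F2 lines, the lowest adjusted p being 0.271 among the ER chaperones and folding enzymes.

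Whether the F0 difference between arms and the F2 difference between lines were unequal was tested in males. None of the 10 genes passed (edgeR; 4 at an unadjusted p below 0.05: atf4a, atf4b, sdf2l1 and kdelr3; DESeq2 none), where 0.00982% of 20373 genes were called. Over all 20373 genes, 2559 stood at an unadjusted p below 0.05. The difference of effects was 0.63 (SE 0.237, adjusted p = 0.315) for sdf2l1, 0.38 (SE 0.145, adjusted p = 0.316) for atf4b, 1.32 (SE 0.562, adjusted p = 0.358) for kdelr3 and 0.59 (SE 0.277, adjusted p = 0.39) for atf4a, larger in F0. It rests on 2 F2 males a line and on the same F0 males that gave the calls between arms. Line effects in F2 females and males did not pass as different for any of the 10 (edgeR; 0 at an unadjusted p below 0.05; DESeq2 none; 0% of 19463 genes called). Over all 19463 genes, 291 stood at an unadjusted p below 0.05. Females and males of F2, given line, differed in none of the 10 (edgeR; 1 at an unadjusted p below 0.05; DESeq2 none), where 0.0161% of genes were called. Over all 18628 genes, 980 stood at an unadjusted p below 0.05. The 1 of the 10 genes was hsp90b1, at 109 ± 27 CPM (SD, n = 4) and 98.05 ± 8.2 CPM (n = 4) in treated-line and control-line females and 84.8 ± 25.2 CPM (n = 2) and 69.97 ± 5 CPM (n = 2) in the males. Its log2 difference, female minus male, was 0.44 (SE 0.149, adjusted p = 0.801).

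**Figure D5:**
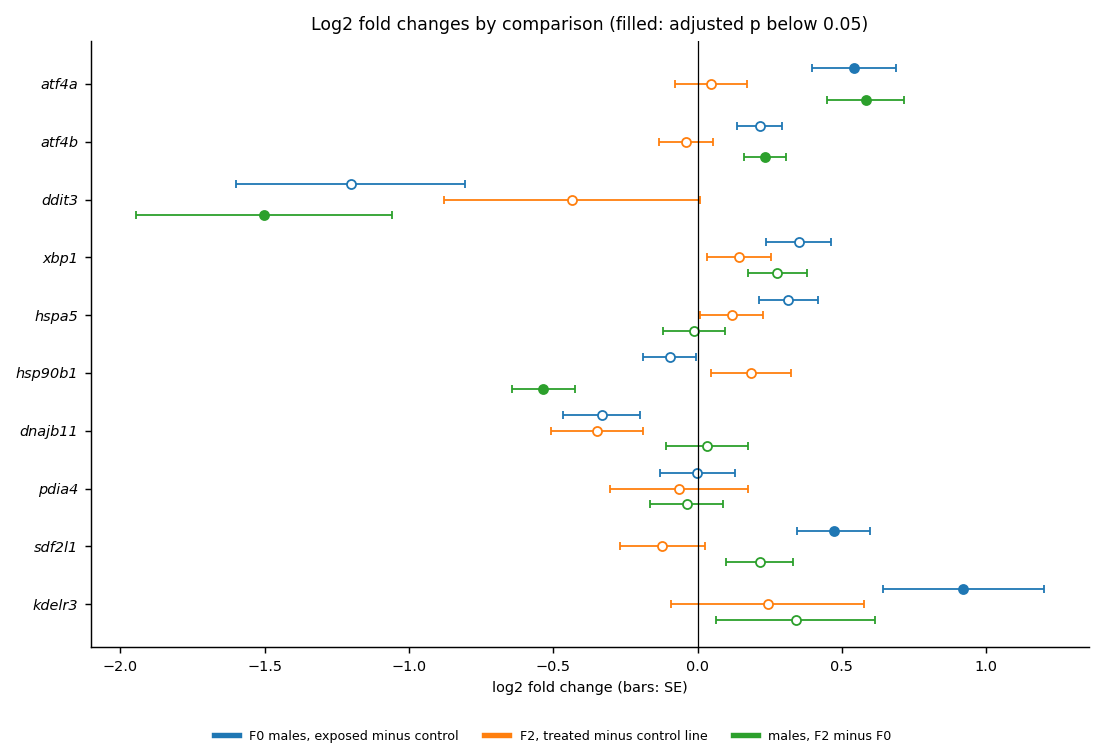
Log2 change of each gene between F0 arms, between F2 lines given sex, and between F2 and F0 males. Points are estimates and bars their SE, filled where the adjusted p is below 0.05: atf4a, sdf2l1 and kdelr3 between F0 arms, none between F2 lines, and atf4a, atf4b, ddit3 and hsp90b1 between generations.

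Between generations, 2 of the 10 genes were higher in F2 than in F0 males, atf4a and atf4b, and 2 were lower, ddit3 and hsp90b1 (edgeR; 5 of the 10 at an unadjusted p below 0.05; DESeq2 called 4). Over all 20373 genes edgeR called 16.1%, 6.61% higher and 9.48% lower, and DESeq2 called 4213 genes. At an unadjusted p below 0.05 (edgeR) stood 6275 of the 20373. None of the 10 had generations that did not overlap, where 1.24% of all genes did. The F2 males number 4, and generation cannot be told apart from rearing, age or sequencing differences between the sets of fish, which the labels do not give. Reads not aligned to a unique place made up 5.98 to 13.6% in F0 males and 8.78 to 28.0% in F2 males. F2 treated-line male 30 had the highest such share and the fewest gene reads (12.2 M) of all fish. What this contributes to the differences was not tested. The F0 males are the same fish as in the comparison of arms.

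The mean of atf4a was 180.0 ± 18.2 CPM (SD, n = 2) in F2 control and 173 ± 33.1 CPM (n = 2) in F2 treated-line males, against the F0 values above. F0 treated male 16, at 213 CPM, was the only F0 male not below the F2 range of 149.8 to 197 CPM. The log2 difference, F2 minus F0, was 0.58 (SE 0.134, adjusted p = 0.00887), lost without F2 treated-line male 30 (adjusted p = 0.0629). For atf4b the F2 males had 520.5 and 539.8 CPM in the control line and 473 and 468 CPM in the treated line. All 4 lay above the mean of the F0 males, and the log2 difference was 0.23 (SE 0.0714, adjusted p = 0.0313). It was lost without F0 treated male 10 or any of the 4 F2 males, with adjusted p-values up to 0.114.

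The levels of ddit3 were low in all F2 fish. Males had 7.14 and 3.16 CPM in the control line and 4.91 and 4.39 CPM in the treated line, and all F2 males were below the lowest F0 control at 15.3 CPM. So were 5 of the 6 F0 treated males, of which male 24, at 5.32 CPM, lay within the F2 male range of 3.16 to 7.14 CPM and male 16, at 1.54 CPM, below that range. The log2 difference was −1.50 (SE 0.444, adjusted p = 0.0326) and was lost without any of the 4 F2 males (adjusted p up to 0.147). F2 females had 8.04, 3.77, 1.75 and 9.34 CPM in the treated line and 10.29, 2.09, 11.6 and 9.63 CPM in the control line. They too were below the lowest F0 control in every fish. For hsp90b1 the F2 females ran from 87.6 to 148 CPM in the treated line and from 88.6 to 108 CPM in the control line. Both ranges overlapped the F0 male range of 90.5 to 135 CPM, so the lower level was seen in F2 males only. The F2 males had 66.4 and 73.5 CPM in the control line and 102.6 and 67 CPM in the treated line. Only treated-line male 30, at 102.6 CPM, reached the F0 range. The log2 difference was −0.53 (SE 0.108, adjusted p = 0.0046), and 0.0518 was the adjusted p without treated-line male 38. Of the others, xbp1 differed by 0.28 (SE 0.102, adjusted p = 0.0684) and passed without F0 treated male 16, sdf2l1 differed by 0.21 (SE 0.117, adjusted p = 0.223) and also passed without that fish (adjusted p = 0.0426). The log2 differences of hspa5, dnajb11 and pdia4 were −0.01, 0.03 and −0.04, and that of kdelr3 was 0.34 (SE 0.275, adjusted p = 0.436).

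Among the lists, 8 of 40 ATF4 and CHOP targets were higher in F2 males and 1 was lower, where 6.61% of all genes were higher and 9.48% lower. Here too no test compared a list with other genes. The highest ranked were the glutathione-degrading CHAC1 (0.60, adjusted p = 0.00157), with mean levels of 411 and 512 CPM in F0 control and treated males against 715 and 676 CPM in F2, the transporter chain slc3a2a (0.45) and the tryptophanyl-tRNA synthetase WARS1 (0.71). For slc3a2a the mean was 105.9 CPM in F2 control-line males but 70.5 CPM in F2 treated-line males. In F0 it was 59.0 CPM in control and 67.7 CPM in treated males. The transcription factor atf5a was lower (−0.83, adjusted p = 0.0168). Of 42 ER chaperones and folding enzymes, 3 were higher, P4HB (0.56, adjusted p = 0.00129), ERP44 (0.34) and TXNDC12 (0.34), all thioredoxin-fold proteins, and 3 were lower, calr3b (−1.37), ERO1B (−0.54) and DNAJB9 (−2.51, adjusted p = 0.0499; 1 of 2 IDs with this symbol). The change of DNAJB9 is uncertain (SE 0.848) because its level was very low. Its means were 2.75 and 0.91 CPM in F0 control and treated males and 0.26 and 0.28 CPM in F2 control-line and treated-line males. Of 26 degradation genes, 3 were higher (RNF139, FAF2 and ubxn4) and 2 lower (os9 and RNF5). Of 34 entry and glycosylation genes, 8 were higher, led by SSR3 (0.57), SRP9 (0.59) and RPN1 (0.43), and 2 lower, RPN2 and SRP54. Of 47 transport genes, 11 were higher, led by the KDEL receptor kdelr2a (0.51, adjusted p = 0.0056), TMED10 and SEC22A, and 2 lower, sec16b and SURF4. For SURF4 this was 1 of 2 IDs with the symbol in any letter case. None of the 5 sensors and proteases passed. Of the cell type markers, 5 of 12 tested microglia markers were higher in F2 males and 0 lower. Their summed level was 1634 to 1828 CPM in F2 control-line males and 1101 to 1263 CPM in F2 treated-line males. In F0 males it was 843 to 1078 CPM in controls and 988.2 to 1211 CPM in treated fish. Of the 13 IDs, 1 was at 0 in every fish. Of 13 radial glia markers 4 were higher and 1 lower, with sums of 5949 to 8346 CPM in F2 and 4941 to 7734 CPM in F0 males. Of 12 neuron markers 1 was higher and 2 lower (5698 to 6534 against 5824 to 7587 CPM), and of 15 markers of meninges, vessels and fibroblasts 2 were higher and 1 lower. Of 9 oligodendrocyte markers 1 was higher and 1 lower. No marker of these other lists was at 0 in all fish of a male group, and the part of any of them in the results was not tested.

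Over the 6 groups the order of mean levels differed between genes. F0 control males were the lowest group for atf4a, atf4b, xbp1, sdf2l1 and kdelr3 and the highest for ddit3 and hsp90b1. For hspa5 the lowest mean was in F2 control-line males (221 ± 52 CPM, SD, n = 2) and the highest in F0 treated males (279 ± 40.6 CPM, n = 6). For kdelr3 the highest was in F2 treated-line females, at 7.02 ± 1.21 CPM (n = 4), against 2.46 ± 0.437 CPM (n = 6) in F0 control males. Neighbouring groups in the order of means overlapped in all 5 pairs for 7 of the 10 genes. The exceptions were the lowest steps of 3 genes: F0 control males lay wholly below F2 control-line females for xbp1 and wholly below F2 treated-line males for sdf2l1 and kdelr3. The share of all genes with such steps was not counted, so these are a description only. The steps of sdf2l1 and kdelr3 set 6 fish against 2, and that of xbp1 crosses both generation and sex.

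Between fish of the same group, with group means removed over 24 fish, the highest correlation with hspa5 among the 9 others was that of xbp1. Pearson's r was 0.61 (adjusted p = 0.016 over 9 genes) and Spearman's rho 0.657 (adjusted p = 0.00225, permutation within groups). The 5 genes from outside the 10 that are named at the end of this paragraph had a higher r. How many of all genes did was not counted, so the value for xbp1 is a description only. Without the 2 fish farthest from the median of hspa5, F0 treated male 16 and F2 control male 27, r was 0.33, so the relation rests on those fish in part. The order of the genes rests on them as well: without them the highest r was that of hsp90b1, at 0.572, where it was 0.299 over all fish (rho 0.316, adjusted p = 0.237 and 0.388). For dnajb11 the values were negative (r = −0.538, rho = −0.565) and did not pass (adjusted p = 0.115 and 0.0967). The r of atf4a with hspa5 was 0.461 (rho 0.349, adjusted p = 0.115 and 0.279). Without the same pair of fish r was −0.362 for dnajb11 and 0.343 for atf4a. None of the 10 genes passed in a like comparison with the share of reads outside genes. The lowest adjusted p, 0.0718 (for rho, permutation within groups), was that of hsp90b1 (r = 0.614, rho = 0.657). How many of all genes would pass was not counted, so this is a description only. With that share, r was −0.133 for atf4a, −0.104 for sdf2l1 and −0.13 for kdelr3. Without the 2 fish farthest from its median, F0 treated male 16 and F2 control-line female 31, these r were 0.29, 0.323 and 0.261. Among 11653 genes with at least 5 CPM, the forkhead factor FOXK2 had the pattern most like that of hspa5 across the 24 fish (r = 0.833). Next came ID2 (0.783), OTP (0.782), si:dkeyp-113d7.1 (0.769) and TLE3 (0.765). These are given as a description, since all genes were measured in the same libraries.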

How the data were processed

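The authors deposited HTSeq read counts per Ensembl gene for 31 runs, not normalised. Per the submitters' processing notes reads were handled with STAR 2.7, HTSeq 0.11.2, cutadapt 2.1, bcl2fastq and DESeq2 1.24.0, and the build was GRCz11 (danRer11). Nothing used here gives the settings, the annotation release or whether counting used strand, and genes that overlap or lie antisense are uncertain for that reason. Summary lines without a gene name were left out of depth and tests. Reads outside genes were 16.64 to 23.57% of those aligned uniquely, 0.446 to 0.511% were ambiguous, and 5.98 to 28% did not align to a unique place. The second runs of 7 fish were summed with the first, since chi-square over degrees of freedom was 1.03 to 1.19 between runs, against 14.6 to 101.6 between fish of 1 group (genes with at least 20 reads). The fish is the replicate.

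Counts were tested with edgeR 4.0.16 (R 4.3.3; glmQLFit robust, glmQLFTest, TMM, filterByExpr with minimum count 10) and adjusted by Benjamini-Hochberg over all genes tested, at 0.05. F0 males were fitted alone, F2 fish in 4 groups or with sex and line as terms, and males of both generations in 4 groups. Since edgeR's quasi-likelihood test reports no SE, SEs were computed as the absolute log2 change over the square root of its F statistic. CPM are scaled by TMM over all 24 fish. A gene at 0 is limited by 3 reads, which covers counting error only. Correlations used log2 CPM (prior count 2) and 100000 permutations. Alternatives were DESeq2 1.42.0, RLE factors, no filter, first runs only, all 24 fish in 1 fit, the outside-gene share as a covariate, each fish left out, 3 F0 males left out, and a block on fish number. The scripts were checked on simulated counts.

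Symbols came from a table that names 29201 of the 32520 IDs and often lacks paralog suffixes. Of 303 listed names, 274 gave an ID not already taken by an earlier name of the same list, 305 IDs in all. The rest matched no ID or only IDs already taken. Named are all members, up to 3 genes per list and direction with the lowest p among those called, and the 5 genes most like hspa5. The members and lists were chosen with earlier results of these data known. Promoter and protein sequences and coordinates were not used here.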

Additional observations from a re-analysis of the deposited data

Results flagged for a closer look

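In 4 of 40 groups of fish checked (4 or more fish, 10 genes), 1 fish lay far enough from the others for Dixon's test at 95%, which chance does in about 1 in 20 groups. F0 treated male 16 was such a fish for atf4a at 212.8 CPM, for xbp1 at 398.1 CPM and for hspa5 at 357.6 CPM; this male also had the lowest share of reads outside genes of all fish. F2 control-line female 39 was the other, for xbp1 at 251.4 CPM, below 3 fish that lay between 267 and 269.5 CPM.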

How the results depend on the processing

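Genes called between F0 arms numbered 2060, but 3347 with DESeq2, 787 with all 24 fish in 1 fit, 42 without treated male 16 and control males 9 and 33, 0 with the outside-gene share as a covariate, and 440 to 3217 when 1 fish was left out (440 without control 33, 515 without treated 24, 615 without control 9, 748 without control 25, 807 without control 31, 1198 without treated 36 and 3217 without treated 2). With the covariate the F0 log2 changes reversed to −0.0354 for atf4a, 0.24 for ddit3, −0.11 for xbp1, −0.025 for hspa5 and 0.0219 for dnajb11; pdia4 was 0.0097 with first runs only. DESeq2 also called atf4b, ddit3, xbp1 and hspa5. The call of kdelr3 was lost with no filter (adjusted p = 0.0598), with first runs only (0.0554) and with all 24 fish (0.0796), and that of sdf2l1 with all 24 fish (0.0582). Left out 1 fish at a time, the F0 calls were lost for atf4a without treated 24 or controls 3, 9, 25 or 33 (adjusted p up to 0.0809), for sdf2l1 without treated 24 or controls 9, 25, 31 or 33 (up to 0.0788) and for kdelr3 except without treated 2 or 10 (up to 0.101); ddit3 passed with first runs only (adjusted p = 0.0406, log2 change −1.20) and without treated 2 or 16, and atf4b without treated 2. Between F2 lines the counts of 0 became 34 (females), 6 (males) and 64 (both sexes) with DESeq2, 3, 3 and 5 with no filter, and 3 (females) and 1 (both) with all 24 fish; leaving out 1 fish gave 0 to 2 in males. The 3 genes called between F2 sexes became 34 with DESeq2 and 6 with no filter, and 2 to 4 with 1 fish left out. Between generations the 3278 calls became 902 with all 24 fish, 4923 without the 3 F0 males and 881 to 5461 with 1 fish left out (881 without F2 treated 38, 1089 without F2 control 25, 1773 without F2 treated 30, 1838 without F2 control 27, 5461 without F0 treated 16), and with no filter or all 24 fish atf4b and ddit3 lost their calls. The 2 genes with unequal effects in F0 and F2 males became 157 with DESeq2, 0 with all 24 fish and 0 to 63 with 1 fish left out, and the 0 with unequal line effects by sex became 1 with no filter and 0 to 1 with 1 fish left out. With the covariate, sdf2l1 reversed to 0.0794 between F2 lines, and atf4a (−0.13), atf4b (0.011), dnajb11 (−0.00787) and sdf2l1 (−0.13) reversed between F2 sexes. With 1 fish left out, signs changed for pdia4 in F0 (−0.0891 to 0.0712); between F2 lines for atf4a (−0.0295 to 0.11), atf4b (−0.0918 to 0.00668) and pdia4 (−0.19 to 0.12); between F2 sexes for atf4a (−0.0678 to 0.0891), pdia4 (−0.028 to 0.21) and sdf2l1 (−0.0404 to 0.0916); between generations for hspa5 (−0.14 to 0.10) and dnajb11 (−0.11 to 0.15); and in the difference of F0 and F2 effects for hspa5 (−0.28 to 0.20) and dnajb11 (−0.52 to 0.0355). The cause of these shifts was not tested. A lone F2 male left in a line is assumed to vary like the other groups. Fish numbers 38 and 25 occur in F0 and F2 males of the same arm, in different animals, and a fit chosen after seeing the data took the number as a replicate block in those 4 males, with 1 residual degree of freedom and the block identical to the arm. It called 42 genes between generations and none of the 10, and signs reversed for hspa5 (0.15), dnajb11 (−0.0621), pdia4 (0.0756) and kdelr3 (−0.17). Deviations of same-numbered fish from their group means correlated at −0.068 and −0.248 over genes. With 2 F2 males a line, their deviations mirror each other. These values cannot show whether same-numbered males share more than a number. In the other comparisons no paired analysis was possible because the groups share fewer than 2 numbers.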
